A study of Mus musculus with 32 samples.

Results

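Heat shock chaperones bind unfolded or partly folded proteins and help them reach their shape, often in cycles driven by ATP. HSP70 proteins take hold of exposed hydrophobic stretches with the help of J-domain proteins and nucleotide exchange factors, HSP90 proteins act later on clients such as kinases and steroid receptors, and the HSP60-HSP10 chamber folds proteins inside mitochondria. Their genes are classical targets of the heat shock factor HSF1, and tumour cells commonly express several of them at high level without any heat shock. The 10 cytosolic and mitochondrial chaperone genes described here are Hspa1a, Hspa1b, Hspa8, Hsp90aa1, Hsp90ab1, Hsph1, Dnajb1, Hspb1, Hspd1 and Hspe1, taken by gene symbol from the 17757 genes of the count table, and all 10 had a row in it.

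The counts came from polysome profiling of 4T1 cells, a mouse triple-negative breast cancer line, grown as spheroids for 5 days in a lung-like medium. There were 4 conditions. ASP shSCR spheroids carried a scrambled control shRNA and received 700 µM aspartate, NoASP shSCR spheroids carried the same control shRNA without added aspartate, ASP shGRIN2D spheroids carried an shRNA against Grin2d (a subunit of the NMDA glutamate receptor) with aspartate, and ASP shDHPS spheroids carried an shRNA against Dhps (deoxyhypusine synthase, which starts the hypusination of the translation factor eIF5A) with aspartate. The comparisons ask what aspartate and these 2 genes do to translation. The shRNAs were delivered by lentivirus and the cells selected with puromycin, so that each line is a selected population and all 4 conditions carry a vector. From 4 independently grown pellets per condition came a polysomal library (mRNA with more than 3 ribosomes) and a sub-polysomal library (fewer than 3) each, 32 libraries in all, with 12870563 to 25639437 counts per library (median 18168765).

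The 10 genes together took 0.413% to 0.697% of the counts in sub-polysomal libraries and 0.504% to 1.14% in polysomal ones. The epithelial markers Epcam, Krt8, Krt18, Cdh1 and Cldn7 were present in every library, with Krt8 at a median of 903 CPM (counts scaled to a common library total) in sub-polysomal libraries. Of 4 leukocyte markers, Ptprc did not exceed 0.879 CPM, Cd68 reached 26.4 CPM, and Cd3e and Lyz2 had no row in the table. Of 3 endothelial markers, Pecam1 did not exceed 0.658 CPM and Cdh5 and Kdr had no row.

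The silenced genes check the labels. Dhps stood at 42.9, 33.2, 43.3 and 41.3 CPM in the 4 sub-polysomal libraries of ASP shSCR and at 9.98, 10.8, 10.2 and 8.96 CPM in those of ASP shDHPS, with no overlap. The level in ASP shSCR was higher by 2.01 log2 units (SE 0.16, edgeR adjusted p = 1.11e-08) among sub-polysomal libraries and by 1.64 (SE 0.23, edgeR adjusted p = 0.0167) among polysomal ones. Grin2d was at 4.29, 3.74, 6.91 and 3.32 CPM in sub-polysomal ASP shSCR libraries and 2.59, 1.87, 2.62 and 2.89 CPM in those of ASP shGRIN2D. These values did not overlap, but the difference of 0.88 log2 units (SE 0.29) did not pass the test across all genes (edgeR adjusted p = 0.232), nor did that of 1.14 (SE 0.33, edgeR adjusted p = 0.263) in the polysomal fraction.

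Polysomal replicate 1 of ASP shSCR stood apart from its group. On a scale where 0 is the mean sub-polysomal profile and 1 the mean polysomal profile of the other 3 conditions, it lay at 0.372, against 0.777 to 1.19 for the other 15 polysomal and -0.106 to 0.122 for the 16 sub-polysomal libraries. ASP shSCR is the control of every comparison, so values without this pellet are given beside several of the results. The log2 ratio used throughout is the polysomal minus the sub-polysomal log2 CPM of a pellet after TMM scaling over all 32 libraries. A ratio of 0 is that of a typical gene among all 17757, thinly counted ones included. It does not mean equal amounts of RNA in the fractions, because the RNA mass of each fraction is not part of the counts.

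The sequences below are those of 2 pairs of neighbouring genes, shown for the promoter that one pair shares and for the near identity of the other. Hspd1 (chr1:55077835-55088243, minus strand, 12 exons) and Hspe1 (chr1:55088132-55091307, plus strand, 4 exons) encode the chamber HSP60 and its lid HSP10, and their annotated 5′ ends overlap head to head, so that they are read in opposite directions from a shared promoter. Gene positions here are those of GRCm38, whereas the authors mapped to GRCm39. The library kit marks strand, and whether the counting of these overlapping genes used it is not given in the sources used here. In the RefSeq promoter windows (GRCm38.p6, 250 bases before to 50 after each start), a heat shock element was searched on both strands as 3 adjoining 5-base units that alternate between NGAAN and NTTCN. It was found in 196 of all 32851 windows (0.597%) and in windows of 3 of the 7 members that the table holds, Hspd1, Hspe1 and Hsph1, where overlapping matches were counted once per window. Hspd1 has a second window, chr1:55088194-55088493, which held no match. For Hspd1 and Hspe1 it is the same stretch, chr1:55088043-55088092, read on the minus and on the plus strand, with the element in capitals:
Hspd1: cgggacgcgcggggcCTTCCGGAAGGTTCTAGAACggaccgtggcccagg
Hspe1: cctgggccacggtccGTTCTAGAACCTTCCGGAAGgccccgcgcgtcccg

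In Hsph1 the match lies within the 50 bases after the start. The windows of Hspa1a, Hspa1b, Dnajb1 and Hspb1 held no match, which says only that these letters are not there. Hspa1a (chr17:34969190-34972156) and Hspa1b (chr17:34956436-34959238) are single-exon neighbours on the minus strand that encode nearly identical inducible HSP70 proteins. The 150 bases before their starts (GRCm38.p6, chr17:34972157-34972306 and chr17:34959239-34959388, both minus strand) differ at 1 position, in capitals:
Hspa1a: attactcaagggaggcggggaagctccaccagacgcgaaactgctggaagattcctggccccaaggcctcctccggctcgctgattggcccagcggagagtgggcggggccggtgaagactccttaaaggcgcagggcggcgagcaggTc
Hspa1b: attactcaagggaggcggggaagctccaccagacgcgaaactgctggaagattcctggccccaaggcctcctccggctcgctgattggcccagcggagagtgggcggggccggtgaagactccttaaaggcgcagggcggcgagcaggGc

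Their transcripts are alike too. Of all 150-base windows, 38.1% in the Hspa1a and 40.5% in the Hspa1b transcript occur in the other gene, so a single read from these stretches cannot be placed by sequence alone. The reads were paired, and a mate outside these stretches could place its pair, which these shares do not count. Hspa1a had 0 to 10 counts in the 32 libraries against 369 to 1761 for Hspa1b, and no fold change is given for it. It was at 0 in all 4 polysomal libraries of ASP shSCR and all 8 libraries of NoASP shSCR, and reached its highest level, 0.656 CPM, in a sub-polysomal library of ASP shGRIN2D. Only through ASP shGRIN2D did Hspa1a meet the authors' expression filter. How many Hspa1a reads were assigned to Hspa1b was not tested. Where counts of the pair were added, the values for Hspa1b below changed little.

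The members spanned a wide range of abundance. The per-length level (CPM divided by transcript length and rescaled to the same sum per library over 17305 genes with a length) was highest for the constitutive cytosolic forms. In the 16 sub-polysomal libraries Hspa8, which encodes the constitutive HSC70, stood at 1442 ± 231 and Hsp90ab1, the constitutive HSP90 beta, at 1262 ± 319 (mean ± SD), which differed by less than their spread. Hspe1 followed at 535 ± 134, above Hspd1 at 132 ± 21.7 and Hsp90aa1, the more inducible HSP90 alpha, at 118 ± 35.8, which again were within the spread of each other. Dnajb1, the J-domain partner of HSP70 also called HSP40, was at 39.3 ± 5.98.

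At the lower end, Hspa1b at 16.1 ± 5.96 and Hsph1 (HSP110, a nucleotide exchange factor of HSP70) at 15.4 ± 5.50 could not be ordered. Hspb1, the small heat shock protein HSP27, was at 4.41 ± 2.95 and Hspa1a at 0.0672. In the 16 polysomal libraries the order changed in the middle of the range. Hspa8 (2102 ± 532) and Hsp90ab1 (2008 ± 669) remained at the top, but Hsp90aa1 (571 ± 239.6) and Hspd1 (438 ± 137) were now above Hspe1 (387 ± 108) in the means, with spreads that overlap.

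**Figure D1:**
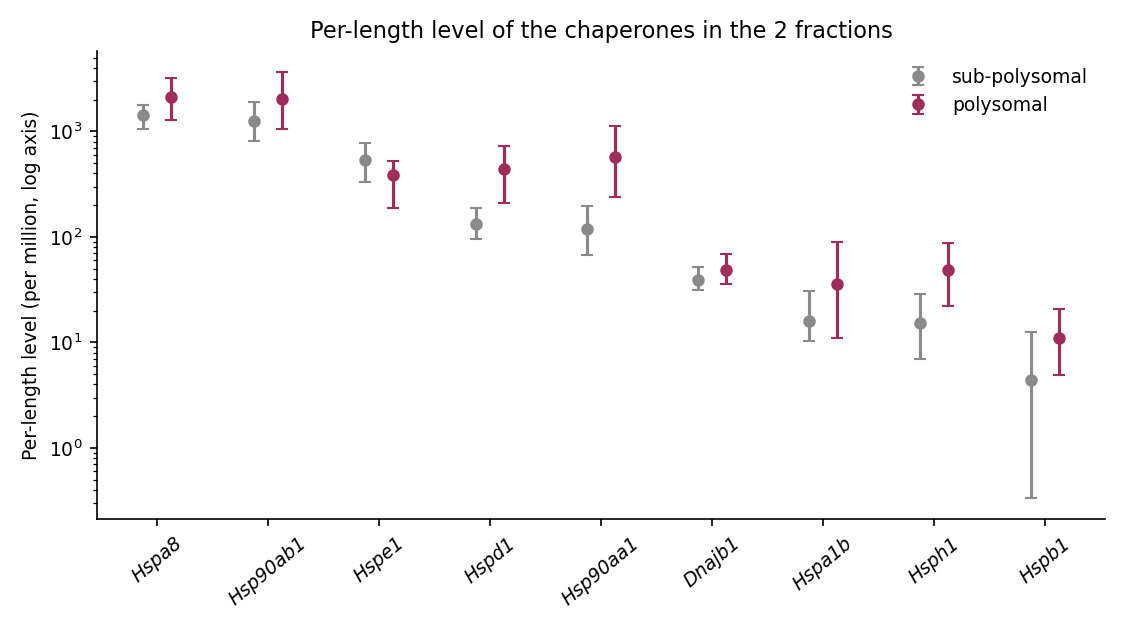
Per-length level of 9 chaperone genes (y axis, log scale) in sub-polysomal (grey) and polysomal (red) libraries, with points for the mean over 16 libraries and bars from the lowest to the highest library. Hspe1 is above Hspd1 and Hsp90aa1 in the sub-polysomal means and below both in the polysomal means.

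Relative to a typical gene, Hsp90aa1, Hsph1 and Hspd1 were shifted to polysomes in every condition, Hspe1 was shifted away from them, and Hspa8, Hsp90ab1 and Dnajb1 lay near 0. In ASP shSCR, 4 of the 10 members were higher in polysomes (background over all genes 20.8%) and 1 was lower (background 18.9%). In NoASP shSCR the counts were 5 (background 23.7%) and 1 (background 20.6%), in ASP shGRIN2D 3 (background 23%) and 1 (background 20.4%), and in ASP shDHPS 5 (background 21.8%) and 1 (background 21.3%). Among 11046 well counted genes, whose counts never fell under 10, the backgrounds were higher. In the same order of conditions they were 31.8%, 36.1%, 35.1% and 33% up and 26.7%, 27.8%, 27.7% and 29.1% down. The median log2 ratio of the 9 members with a fold change was 0.52 in ASP shSCR, 0.79 in NoASP shSCR, 0.22 in ASP shGRIN2D and 0.91 in ASP shDHPS, while that of all genes was between -0.09 and 0.00. No median was taken over the well counted genes as a whole. In the 5 coding length classes of such genes described below, the medians of the mean ratio ran from -0.35 to 0.33. The members' median in ASP shGRIN2D lay inside that range. In ASP shSCR, 52.4% of the calls over all genes were in the polysomal direction, against 63.8% with TMM scaling within each fraction, which moved the median of all genes from -0.04 to 0.13, 49.6% with upper quartile scaling and 47.7% with DESeq2's size factors.

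The HSP90 isoforms differed from each other. Hsp90aa1 had log2 ratios of 1.33, 1.71, 1.66 and 2.18 in the 4 pellets of ASP shSCR, 1.84, 1.40, 1.85 and 2.78 in NoASP shSCR, 1.83, 1.54, 2.10 and 2.17 in ASP shGRIN2D and 1.39, 1.34, 1.22 and 2.06 in ASP shDHPS. All 16 values were above 1 and the conditions overlapped. The fitted ratios were 1.72, 1.96, 1.91 and 1.50 in that order of conditions (SE 0.22, 0.22, 0.22 and 0.21), each above 0 by edgeR (adjusted p between 8.74e-08 and 2.63e-06). Hsp90ab1, whose product shares most functions with HSP90 alpha, had ratios from -1.04 to 1.00 over the 16 pellets, above 0 in 10, and its fitted ratios of 0.03, 0.23, 0.12 and 0.44 did not pass the test in any condition (edgeR adjusted p from 0.22 to 0.959). The ASP shDHPS ratio passed in 1 of 25 alternatives, the fit with the replicate number as a block (edgeR adjusted p = 0.0389). Within a pellet the Hsp90aa1 ratio exceeded that of Hsp90ab1 in 16 of 16 pellets, by 1.58 ± 0.53 log2 units (mean ± SD, n = 16). By condition the distance was 1.70 ± 0.71, 1.75 ± 0.47, 1.79 ± 0.25 and, in ASP shDHPS, 1.07 ± 0.40 (mean ± SD, n = 4), and whether it differed between conditions was not tested.

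The HSP70 group did not move as a unit. Hsph1 was shifted to polysomes in all 16 pellets, with ratios of 0.61, 0.96, 1.10 and 1.81 in ASP shSCR, 1.21, 0.63, 1.17 and 1.99 in NoASP shSCR, 1.06, 0.91, 1.34 and 1.55 in ASP shGRIN2D and 1.08, 0.56, 0.76 and 1.80 in ASP shDHPS. The groups overlapped, and the fitted ratios of 1.12, 1.25, 1.22 and 1.05 passed the edgeR test in each condition (adjusted p between 3.92e-05 and 0.000319). Hspa8, in contrast, was above 0 in 8 of 16 pellets (range -1.09 to 1.08), and none of its fitted ratios passed (edgeR adjusted p from 0.625 to 1). Hspa1b lay between them. Its ratio was above 0 in 13 of 16 pellets, and it passed the test in NoASP shSCR (0.79, SE 0.27, edgeR adjusted p = 0.0166) and in ASP shDHPS (0.91, SE 0.27, edgeR adjusted p = 0.00637) but not in ASP shSCR (0.52, edgeR adjusted p = 0.134) or ASP shGRIN2D (0.22, edgeR adjusted p = 0.55). The value in ASP shSCR was 0.86 and passed without ASP shSCR replicate 2 (edgeR adjusted p = 0.00948) and was 0.29 without ASP shSCR replicate 4, and that in ASP shGRIN2D was -0.06 without ASP shGRIN2D replicate 4. Of 26 alternatives, 3 called Hspa1b in ASP shSCR. The 2 calls rested on single pellets too, since the adjusted p was 0.15 without NoASP shSCR replicate 4, 0.0548 without NoASP shSCR replicate 1 and 0.0516 without ASP shDHPS replicate 4.

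The ratios of Dnajb1 lay on both sides of 0. They were 0.56, 0.15, -0.01 and -0.15 in ASP shSCR, -0.37, -0.27, -0.13 and -0.63 in NoASP shSCR, -0.55, 0.20, -0.38 and -0.44 in ASP shGRIN2D and -0.08, 0.06, 0.33 and -0.25 in ASP shDHPS. All 4 NoASP shSCR pellets were below 0, yet no fitted ratio passed (edgeR adjusted p from 0.103 to 0.959). The NoASP shSCR ratio of -0.35 passed in several other settings, including the fit without ASP shSCR replicate 1 (-0.40, edgeR adjusted p = 0.0437) and DESeq2's Wald test (adjusted p = 0.0171). The ASP shGRIN2D ratio of -0.29 passed in 1 setting, without ASP shGRIN2D replicate 2 (-0.49, edgeR adjusted p = 0.0429). In ASP shSCR the highest value, 0.56, came from pellet 1, the pellet whose polysomal library stood apart, and without it the fitted ratio went from 0.14 to -0.07. Within a pellet, Hsph1 exceeded Dnajb1 in 16 of 16 pellets, by 1.28 ± 0.70 log2 units (mean ± SD, n = 16).

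Hspb1 was shifted to polysomes in 3 of the 4 conditions, on 4 to 157 counts per library. Its ratios were 0.23, 2.93, 1.72 and 0.63 in ASP shSCR, 1.86, 0.78, 1.37 and 1.24 in NoASP shSCR, 0.95, 0.45, 0.03 and 0.27 in ASP shGRIN2D and 1.55, 0.98, 0.75 and 0.63 in ASP shDHPS. The ASP shSCR pellets spread the most, and the highest of them rests on the library with 4 counts. The fitted ratios passed in ASP shSCR (1.30, SE 0.35, edgeR adjusted p = 0.00363, but 0.84 with adjusted p = 0.0461 without ASP shSCR replicate 2), in NoASP shSCR (1.37, SE 0.33, edgeR adjusted p = 0.00129) and in ASP shDHPS (1.00, SE 0.32, edgeR adjusted p = 0.0126, but 0.0928 without ASP shDHPS replicate 1). In ASP shGRIN2D the value was 0.43 (SE 0.31, edgeR adjusted p = 0.287), and it ran from 0.23 to 0.57 when 1 pellet was left out.

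The mitochondrial partners, which form 1 folding machine and share the promoter printed above, lay on opposite sides of the typical gene. Hspd1 had log2 ratios of 0.85, 0.51, 1.33 and 1.64 in ASP shSCR, 1.19, 0.51, 1.59 and 1.95 in NoASP shSCR, 1.49, 0.96, 1.46 and 1.65 in ASP shGRIN2D and 1.15, 0.94, 0.75 and 1.71 in ASP shDHPS. Hspe1 had -1.46, -0.17, -1.36 and -0.89 in ASP shSCR, -0.77, -0.75, -1.03 and -0.64 in NoASP shSCR, -1.89, -0.95, -0.48 and -0.89 in ASP shGRIN2D and -1.65, -0.80, -0.73 and -0.37 in ASP shDHPS. Hspd1 was above 0 and Hspe1 below 0 in 16 of 16 pellets, though how common such a steady sign is among all genes was not counted. The fitted ratios of Hspd1 were 1.08, 1.31, 1.39 and 1.14 (edgeR adjusted p between 1.17e-05 and 0.000342) and those of Hspe1 -0.97, -0.80, -1.05 and -0.88 (edgeR adjusted p between 0.000493 and 0.00517), so both passed in all 4 conditions. The distance between them was 2.16 ± 0.67 log2 units within a pellet (mean ± SD, n = 16).

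**Figure D2:**
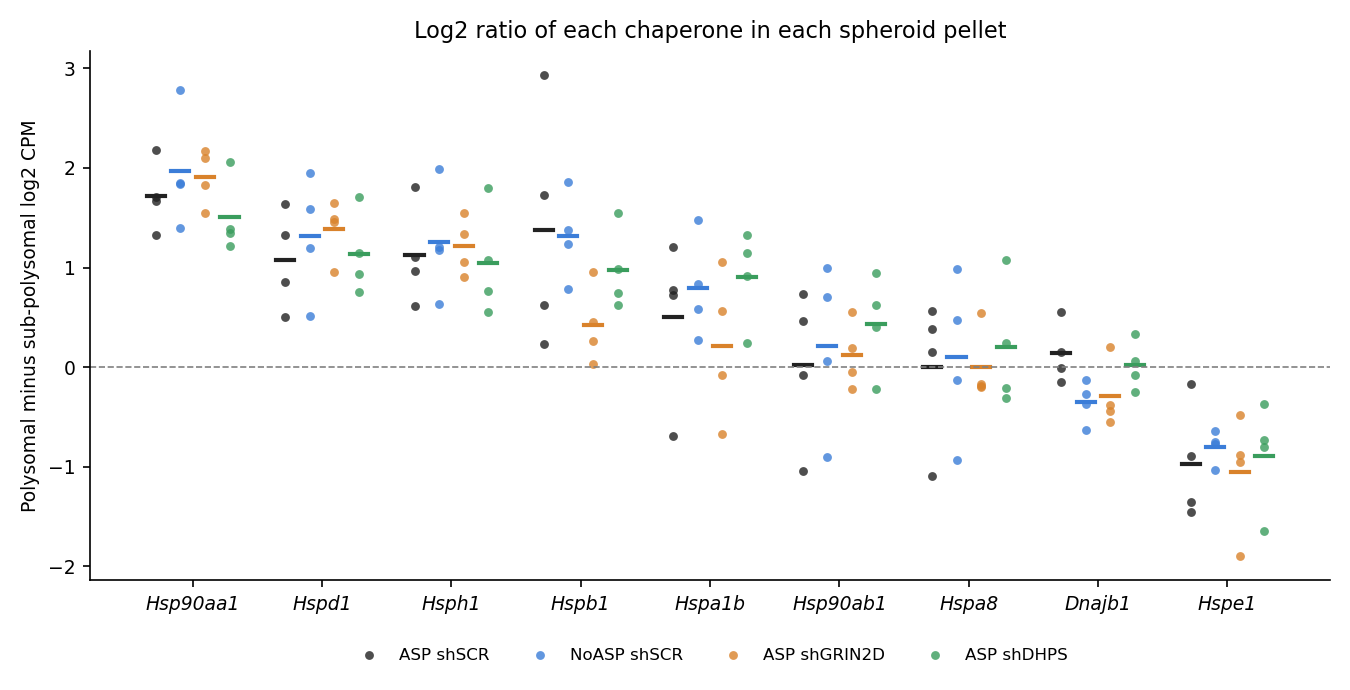
Polysomal minus sub-polysomal log2 CPM (y axis) of 9 chaperone genes in each of 16 spheroid pellets, with 4 points per condition and short lines for the condition mean. Hsp90aa1, Hspd1, Hsph1 and Hspb1 lie above 0 and Hspe1 below 0 in all 16 pellets, and the 4 conditions overlap for each gene. The share of all genes that keep 1 sign over the 16 pellets was not counted.

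The coding sequence is the part of the mRNA that ribosomes occupy, and a short one holds few of them. Coding length is therefore given beside the ratios. With 10501 genes counted in every library split into 5 classes of coding length, the median ratio was -0.35 in the shortest class (75 to 735 nucleotides) and 0.18, 0.29, 0.33 and 0.32 in the longer ones. Hspe1, with a coding length of 306 nucleotides, was in the shortest class, and its mean ratio of -0.93 lay within the middle 50% of that class, which ran from -1.07 to 0.31. Hspd1 (1719 nucleotides), Hsp90aa1 (2199), Hsp90ab1 (2172), Hspa8 (1938) and Hspa1b (1926) were all in the fourth class, whose middle 50% ran from -0.30 to 0.85. Hspd1 at 1.23 and Hsp90aa1 at 1.78 were above that range, and Hsp90ab1 and Hspa8 inside it. Hsph1, in the longest class, was above its class range as well, and Dnajb1, in the second class, was inside. Hspa1a and Hspb1 were counted too thinly for the classes. Hspb1, with as few as 4 counts, has a coding length of 627 nucleotides, within the range of the shortest class. Its mean ratio of 1.02 lay above the middle 50% of that class, unlike that of Hspe1. The part of coding length in the ratios was not tested.

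**Figure D3:**
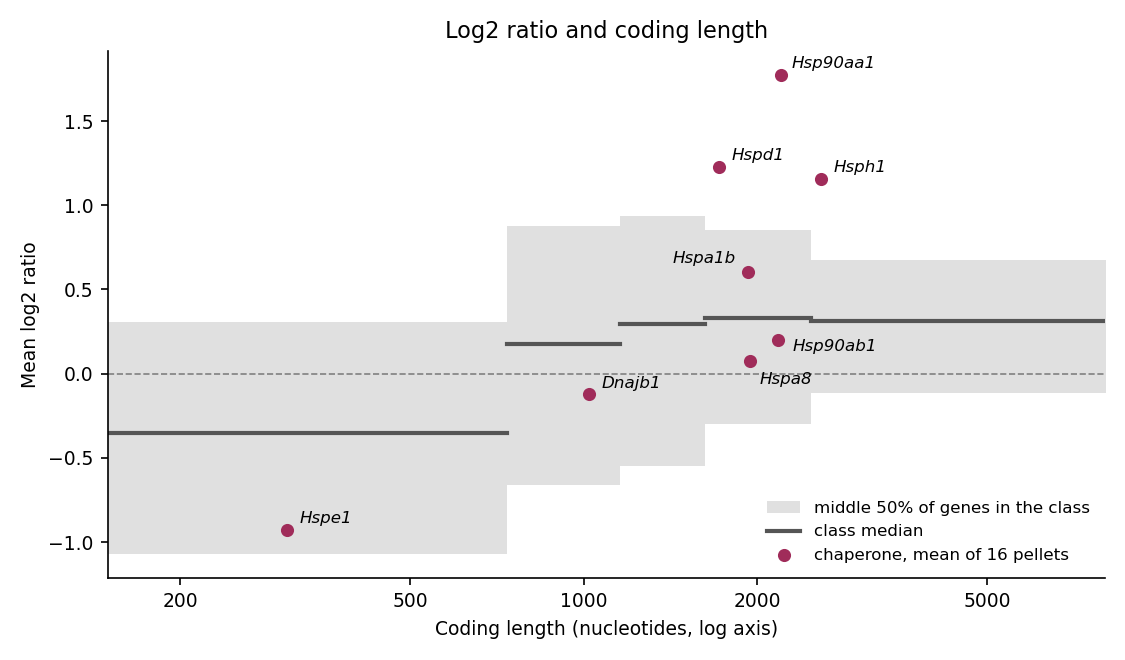
Mean log2 ratio over 16 pellets (y axis) against coding length in nucleotides (log axis) for 8 chaperone genes (red points), with the median (dark line) and middle 50% (grey band) of all counted genes in 5 length classes. Hspe1 is the shortest and lies inside its band, while Hsp90aa1, Hspd1 and Hsph1 lie above theirs. Hspa1a and Hspb1, counted too thinly for the classes, are not shown.

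Some of the members varied together from pellet to pellet and others did not. Over the 16 pellets, Pearson's r between log2 ratios was 0.918 for Hsp90aa1 and Hsph1, 0.917 for Hspa8 and Hsp90ab1 and 0.859 for Hsph1 and Hspd1. Dnajb1 was opposite to several members, at -0.741 with Hsp90aa1, the lowest value, and -0.661 with Hspd1. Hspb1 and Hspe1 were near 0 or below with most members, such as -0.407 for Hspa8 and Hspb1 and -0.09 for Hspd1 and Hspe1. These points share libraries, scaling and depth, and the values describe these pellets only. The genes outside the group whose pellet ratios were most like the members' mean ratio, among 9993 genes with a mean of at least 100 counts, were Znhit6 (r = 0.919), Mthfd1l (0.905), Cand1 (0.897), Hsd17b4 (0.879) and Wdr3 (0.87). For the sub-polysomal level they included Rbm48 (0.847), Cand1 (0.787), Polrmt (0.777) and Smg8 (0.774). Both means were taken over all 10 members and so include Hspa1a. Its values rest on 0 to 10 counts, and its pellet ratios spread more than those of any other member (SD 0.905). Which genes would be named without Hspa1a was not tested.

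Between conditions, none of the 10 members passed the test for a difference in log2 ratio. The 3 comparisons share the ASP shSCR pellets. In ASP shSCR minus NoASP shSCR 0 members passed edgeR's test (background 0%), in ASP shSCR minus ASP shGRIN2D 0 passed (background 0%), and in ASP shSCR minus ASP shDHPS 0 passed (background 0.208%). DESeq2 also called 0 members in each, where it called 0, 0 and 664 of all genes, and 0 members had an unadjusted p under 0.05, against 1.93%, 3.22% and 13.6% of all genes. The 95% intervals, which are for single genes and not adjusted over all genes, show part of what these pellets could miss. For Hsp90aa1 the difference from NoASP shSCR was -0.24 log2 units (95% interval -0.86 to 0.37), from ASP shGRIN2D -0.19 (-0.80 to 0.42) and from ASP shDHPS 0.22 (-0.39 to 0.83). When 1 pellet was left out they ran from -0.43 to 0.03 (the highest without NoASP shSCR replicate 4), from -0.34 to -0.10 and from 0.07 to 0.40.

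For Hspe1 the 3 differences were -0.17 (-0.84 to 0.49), 0.08 (-0.59 to 0.74) and -0.09 (-0.75 to 0.58). When 1 pellet was left out they ran from -0.43 to -0.03, from -0.20 to 0.27 and from -0.37 to 0.09, so that the sign of the last 2 depended on the pellet left out. The largest was that of Hspb1 against ASP shGRIN2D, 0.87 (-0.09 to 1.83), followed by Dnajb1 against NoASP shSCR, 0.49 (-0.01 to 0.99). When 1 pellet was left out the Hspb1 difference lay between 0.43 (without ASP shSCR replicate 2, whose sub-polysomal library had 4 counts) and 1.25 (without ASP shSCR replicate 1), and it passed the edgeR test in none of these 16 fits (lowest adjusted p = 0.817). Differences of about 1 log2 unit are thus inside some of these intervals and would not have been told from 0. Differences outside an interval could be missed too, since a call also needs the adjustment over all genes.

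**Figure D4:**
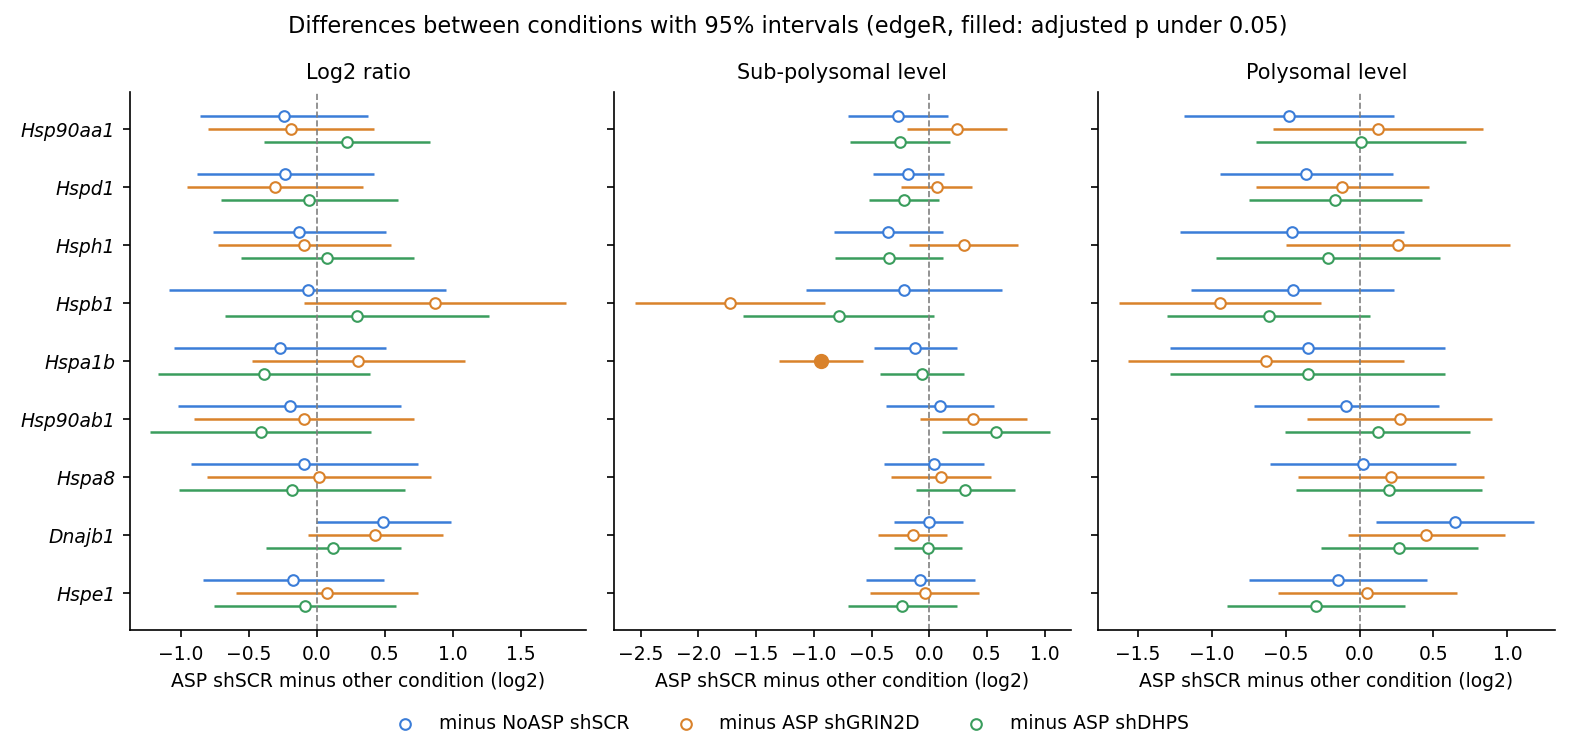
Difference of ASP shSCR minus each other condition (x axes, log2) for 9 chaperone genes in the log2 ratio, the sub-polysomal level and the polysomal level, with points for edgeR estimates, bars for 95% intervals and filled points for an adjusted p under 0.05. The single filled point is Hspa1b against ASP shGRIN2D in the sub-polysomal level.

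The level of a gene within a fraction was compared next. In these bulk samples fewer cells of a kind and less RNA per cell cannot be told apart. In the sub-polysomal fraction Hspa1b was the member that changed, and it was lower in ASP shSCR than in ASP shGRIN2D. Its level was 23.8, 25.3, 27.7 and 21.9 CPM in ASP shSCR, 26.3, 22.4, 25.4 and 33.7 CPM in NoASP shSCR, 19.9, 24.1, 29.6 and 30.0 CPM in ASP shDHPS and 35.0, 41.8, 55.2 and 57.6 CPM in ASP shGRIN2D. The 4 ASP shGRIN2D libraries were higher than all 12 others. The difference of ASP shSCR minus ASP shGRIN2D was -0.94 log2 units (SE 0.18, 95% interval -1.30 to -0.57, edgeR adjusted p = 0.00941), and with Hspa1a counts added it was -0.94 (adjusted p = 0.00948). The call was lost without ASP shGRIN2D replicate 4 (-0.83, edgeR adjusted p = 0.0687) and kept without ASP shSCR replicate 1 (-0.91, edgeR adjusted p = 0.036). Against NoASP shSCR the Hspa1b difference was -0.12 (-0.48 to 0.24) and against ASP shDHPS -0.06 (-0.42 to 0.30), and neither passed.

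Hspb1 had the largest sub-polysomal difference among the 9 members with a fold change. It stood at 2.63, 0.250, 1.37 and 1.66 CPM in ASP shSCR, 1.79, 1.70, 1.37 and 2.19 CPM in NoASP shSCR, 2.36, 1.79, 2.72 and 3.53 CPM in ASP shDHPS and 3.88, 2.99, 5.64 and 7.48 CPM in ASP shGRIN2D. ASP shGRIN2D did not overlap with either shSCR condition and overlapped with ASP shDHPS. The difference of ASP shSCR minus ASP shGRIN2D was -1.73 log2 units (SE 0.40, edgeR adjusted p = 0.0556), just outside the threshold of 0.05, and DESeq2's Wald test placed it inside (adjusted p = 0.00397). The edgeR fit with the replicate number as a block, described below, placed it inside as well. When 1 pellet was left out the difference lay between -2.16 (without ASP shSCR replicate 1, edgeR adjusted p = 0.0256) and -1.40 (without ASP shSCR replicate 2, edgeR adjusted p = 0.116), and it passed in 2 of the 16 fits, with adjusted p up to 0.219 (without ASP shGRIN2D replicate 4). Hsp90ab1 against ASP shDHPS was 0.58 (SE 0.23), with an unadjusted p of 0.0177 and an edgeR adjusted p of 0.216, and was 0.31 without ASP shSCR replicate 2.

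In all, 0 of 10 members passed in the sub-polysomal level of ASP shSCR minus NoASP shSCR (background 0%), 1 minus ASP shGRIN2D (background 0.315%) and 0 minus ASP shDHPS (background 1.41%). DESeq2 called 0, 2 and 0 members and 1, 231 and 652 of all genes, and 0, 2 and 1 members had an unadjusted p under 0.05, against 4.91%, 11.01% and 15.95% of all genes. The summed level of the 5 epithelial markers was 3192 ± 825 CPM in ASP shSCR, 2737 ± 419 CPM in NoASP shSCR, 1869 ± 165 CPM in ASP shGRIN2D and 1941 ± 199 CPM in ASP shDHPS (mean ± SD, n = 4). Its part in the Hspa1b difference was not tested.

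**Figure D5:**
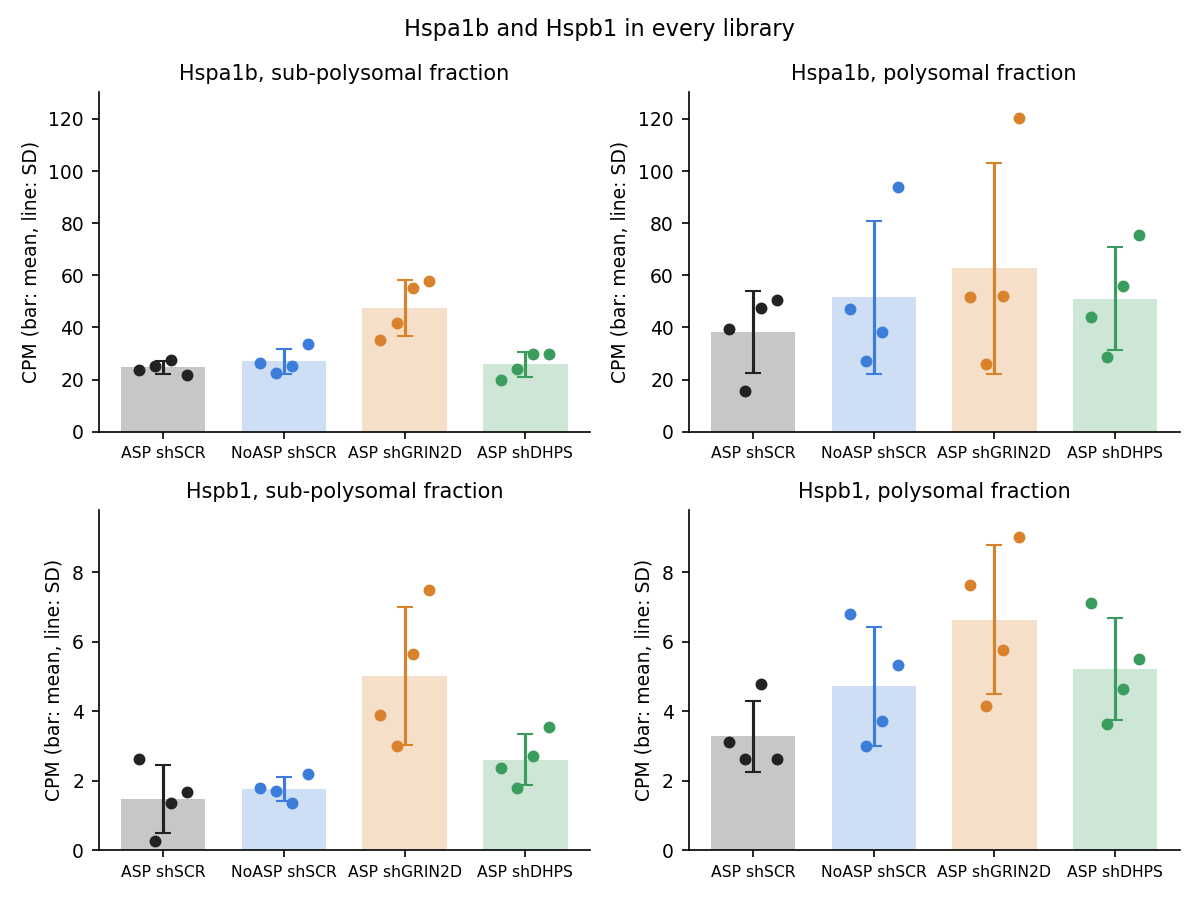
Level of Hspa1b (top) and Hspb1 (bottom) in CPM (y axes) in every sub-polysomal (left) and polysomal (right) library of the 4 conditions, with points for replicates 1 to 4 from left to right, bars for the mean and lines for the SD. In the sub-polysomal fraction the 4 ASP shGRIN2D libraries lie above the 4 ASP shSCR libraries for both genes, and in the polysomal fraction the conditions overlap.

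In the polysomal fraction no member passed the test between conditions. Members called were 0 in ASP shSCR minus NoASP shSCR (background 0%), 0 minus ASP shGRIN2D (background 0.0169%) and 0 minus ASP shDHPS (background 0.169%), DESeq2 called 0 in each and 1, 69 and 554 of all genes, and 1, 2 and 0 members had an unadjusted p under 0.05, against 7.75%, 9.06% and 16.4% of all genes. Hspa1b was 39.4, 15.7, 47.5 and 50.6 CPM in ASP shSCR and 51.9, 26.2, 52.2 and 120.3 CPM in ASP shGRIN2D, with overlap and a difference of -0.63 log2 units (-1.57 to 0.30), which was -0.12 without ASP shGRIN2D replicate 4, the library with 120.3 CPM, and -0.36 without ASP shSCR replicate 2. Hspb1 was 3.10, 2.62, 4.77 and 2.62 CPM in ASP shSCR and 7.62, 4.14, 5.76 and 9.02 CPM in ASP shGRIN2D, again with overlap (difference -0.94, unadjusted p = 0.0095, edgeR adjusted p = 0.326). Dnajb1 was 144, 87.2, 68.0 and 63.6 CPM in ASP shSCR and 66.1, 65.8, 64.9 and 52.6 CPM in NoASP shSCR. Its difference was 0.65 (unadjusted p = 0.02, edgeR adjusted p = 0.479) and was 0.21 without ASP shSCR replicate 1, the library with 144 CPM. The second member with an unadjusted p under 0.05 against ASP shGRIN2D was Hspa1a, at 0 counts in all 4 ASP shSCR libraries. The authors kept genes expressed in at least 3 of 4 replicates of a group, and Hspa1a met this only in ASP shGRIN2D. Its p against that condition is therefore not taken as a result. The summed polysomal level of the 2 leukocyte markers in the table, of which Ptprc was under 1 CPM and Cd68 gave the rest, was 11.4 ± 1.83 CPM in ASP shSCR, 11.6 ± 2.61 CPM in NoASP shSCR, 16.2 ± 3.22 CPM in ASP shGRIN2D and 22.3 ± 3.39 CPM in ASP shDHPS (mean ± SD, n = 4), and its part in the polysomal values was not tested.

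The partners of these chaperones were likewise found on both sides of the typical gene. Of 75 genes in 7 further lists, 73 had a row in the table, and 0 of the 73 passed in any of the 9 comparisons between conditions, in which the background over all genes was 0% to 1.41%. Among 19 co-chaperones of the HSP70 cycle, 12, 12, 13 and 11 were higher in polysomes, in the order of conditions used above, and 3, 3, 4 and 3 were lower. Stip1, which passes clients from HSP70 to HSP90, was at 1.44 log2 units in ASP shSCR, the J-domain protein Dnaja1 at 1.28 and Dnajc7 at 1.31. The exchange factor Bag1 was at -1.41 and the ubiquitin ligase Stub1 (CHIP) at -1.33. The median of the list was 0.79, 0.85, 1.08 and 0.62 in the 4 conditions.

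Of 9 HSP90 co-chaperones, 4, 7, 7 and 7 were higher in polysomes and 0 lower in each condition, led in ASP shSCR by Ppid (a cyclophilin) at 1.51, with list medians of 0.43, 0.84, 0.80 and 0.90. Cdc37, which brings kinases to HSP90, was at 1.24 in ASP shDHPS. Of 12 mitochondrial chaperones and proteases, 8, 7, 7 and 7 were higher and 1 lower in each condition. The mitochondrial HSP90 Trap1 was at 1.52 and the mitochondrial HSP70 Hspa9 at 1.36 in ASP shSCR, on the same side as Hspd1, whereas Hscb, a J-domain protein of iron-sulfur cluster assembly, was at -0.82. The cytosolic chaperonin TRiC with prefoldin had 9, 10, 10 and 11 of 14 genes higher and 1 lower, with Cct3 at 1.85 and Pfdn1 at -0.70 in ASP shSCR.

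Of the other small heat shock proteins 4 were measured, of which 1 was higher in each condition and 2, 1, 2 and 1 were lower. Hspb8 was higher in polysomes in all 4 conditions (1.10 in ASP shSCR), like Hspb1 in 3, while Cryab was lower in all 4 (-1.25 in ASP shSCR) and Hspb6 in ASP shSCR (-0.92) and ASP shGRIN2D (-0.76). Among 4 heat shock factors and regulators, Hsf1 itself was lower in polysomes in all 4 conditions (-1.32 in ASP shSCR), as was its binding protein Hsbp1 (-0.98), and Hsf2 was higher in 3 (0.74 in ASP shSCR). For comparison, 7, 7, 9 and 7 of 11 endoplasmic reticulum chaperones were higher and 1, 1, 1 and 0 lower, with Pdia6 at 2.12 and Hspa5 (BiP) at 1.81 in NoASP shSCR. These shares stand beside the backgrounds of 20.8% to 23.7% higher and 18.9% to 21.3% lower given above for all genes. Among the well counted genes the backgrounds were 31.8% to 36.1% higher and 26.7% to 29.1% lower.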

How the data were processed

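The data were polysomal and sub-polysomal mRNA libraries of 16 spheroid pellets. For the deposited gene counts the authors, per their processing notes and methods, trimmed reads with Trim Galore (0.6.6), checked them with FastQC (0.11.9), mapped them to GRCm39 with STAR (2.6.1) and quantified them with Salmon (1.4.0). They rounded these estimates and removed genes without expression in at least 3 of 4 replicates of every group. Their deposited log2 differences, p and q values and gene set scores (DESeq2 1.34.0) were not used. No column of per-sample values was left out.

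Groups were taken from the sample labels. Ratios were fitted to 17757 genes in 32 libraries with edgeR (4.0.16) quasi-likelihood tests, with a term for each pellet and a ratio for each condition, after TMM scaling over all libraries. Levels were fitted within the 16 libraries of a fraction, with TMM scaling within it. P-values were adjusted by Benjamini-Hochberg over all genes, with a threshold of 0.05, and no gene was filtered. A prior count of 2 was used for the log2 ratios of single pellets. The pellets were independent per the labels, and all tests were two-sided. Intervals of 95% used the standard error and total degrees of freedom of the quasi-likelihood test.

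The members and the further lists were chosen with earlier results of these data known. Genes of the further lists were named by the largest changes past the threshold, up to 3 per list, comparison and direction. The fits were tested on simulated data, and no result of that test is given or used here. Alternatives were other scalings, filters, designs and samples, the sum of Hspa1a and Hspa1b, a prior count of 0.5 and DESeq2 (1.42.0) in R (4.3.3). Lengths and gene positions came from an annotation of GRCm38, with a length for 97.5% of genes. Promoters came from RefSeq (GRCm38.p6), which gave windows for 7 of the 10 members and none used here for Hspa8, Hsp90aa1 and Hsp90ab1. A gene that the rule on likeness to the members would name is not reported here.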

Additional observations from a re-analysis of the deposited data

Results flagged for a closer look

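In each condition, the 4 values of each of 9 members (log2 ratio, sub-polysomal CPM and polysomal CPM) were searched for a sample far from the other 3 by Dixon's test. Of 108 groups 6 held such a sample, where chance alone gives about 1 in 20, or 5.4. The Hspa8 log2 ratio of ASP shGRIN2D replicate 4 was 0.55, while the other 3 lay between -0.20 and -0.17. Hsp90aa1 in the sub-polysomal library of NoASP shSCR replicate 3 was at 408 CPM, against 264 to 272 CPM. Dnajb1 was low in the polysomal library of NoASP shSCR replicate 4, at 52.6 CPM against 64.9 to 66.1 CPM, and high in that of ASP shGRIN2D replicate 2, at 89.9 CPM against 64.3 to 67.8 CPM. Hspd1 in the sub-polysomal library of ASP shSCR replicate 3 was at 241 CPM, against 192 to 199 CPM. Hspe1 in the polysomal library of ASP shDHPS replicate 1 was at 107 CPM, against 189.6 to 205 CPM.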

How the results depend on the processing

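No called member value changed sign in any alternative. Of the 13 counts of members called, 12 stayed within 1.5 times of their value in every alternative. The exception was the sub-polysomal level of ASP shSCR minus ASP shGRIN2D, where 1 member passed. The count was 2 with the replicate number as a block, 2 with DESeq2's Wald test, and 0 to 2 when 1 pellet was left out, and the second member was Hspb1. The blocked fit gave Hspb1 an edgeR adjusted p of 0.00765. In the ratios, the replicate block added Hspa1b in ASP shSCR and Hsp90ab1 in ASP shDHPS to the calls. The count in ASP shSCR, 5 in the main fit, was also 6 with TMM scaling within each fraction. The numbers were not taken as pairing the pellets across conditions, since 14 of 24 same-numbered pairs correlated above 0.1 in the ratio, 18 of 24 in the sub-polysomal and 16 of 24 in the polysomal level. As a hint from the data and not the design, the medians of same-numbered pairs were 0.166, 0.249 and 0.358 in that order, against -0.05, -0.08 and -0.11 for different numbers, and 10, 14 and 11 of 16 correlated best with their own number. The calls over all genes, and so the backgrounds, depended more on the tool, the scaling and the samples. They were 37 by edgeR and 664 by DESeq2 in the ratio difference of ASP shSCR minus ASP shDHPS (0 to 159 without 1 pellet, 266 with at least 10 counts in every library, 188 with filterByExpr, 184 with TMM within each fraction, 12 with upper quartile scaling, and 0 with DESeq2's size factors, without the pellet terms or with the compared conditions alone), and 231 with the block. In the sub-polysomal level they were 56 and 231 against ASP shGRIN2D (195 with the block, 23 to 64 without 1 pellet) and 251 and 652 against ASP shDHPS (758 with the block, 80 to 370 without 1 pellet). In the polysomal level they were 3 and 69 against ASP shGRIN2D (27 with the block, 0 to 98 without 1 pellet) and 30 and 554 against ASP shDHPS (405 with the block, 0 to 304 without 1 pellet, 2 with upper quartile scaling and 1 with the compared conditions alone). DESeq2 called 1 gene in each fraction against NoASP shSCR where edgeR called 0. Hspb1 had 4 counts in 1 library and dropped out under that filter, and Hspa1a, with 0 to 10 counts, was given no fold change.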

Other observations

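The share of counts taken by the 10 chaperones differed between polysomal libraries in the same way in each condition. It was lowest in the library numbered 2, at 0.541% in ASP shSCR, 0.566% in NoASP shSCR, 0.538% in ASP shGRIN2D and 0.504% in ASP shDHPS. It was highest in the library numbered 4, at 0.902%, 1.14%, 0.841% and 0.92%. Hspa8 and Hsp90ab1 hold most of these counts, and polysomal Hspa8 was lowest in the library numbered 2 in all 4 conditions. The sub-polysomal shares did not have this order, with the highest in the library numbered 2 in ASP shSCR (0.685%) and NoASP shSCR (0.697%) and in the library numbered 3 in ASP shGRIN2D (0.565%) and ASP shDHPS (0.536%). The labels do not say what libraries with the same number share.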
